A study of Mus musculus with 96 samples.

Results

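The replication-dependent histone genes of the mouse were followed in total RNA of forebrain, cerebellum, liver and kidney, across time of day and after sleep deprivation (SD). Members were set by a rule on names, chosen with earlier results of these data known. The rule took every row of the gene count table whose Ensembl identifier carries, in GENCODE M21, a symbol beginning with Hist1h, Hist2h, Hist3h or Hist4h, leaving out names that end in -ps. This gave 67 of 54833 rows, of which 6 coded for H1, 20 for H2A, 16 for H2B, 12 for H3 and 13 for H4 histones. The rule also fits 2 symbols that have no row among those used, and these were not analysed here. The Hist1 cluster on chromosome 13 held 54 members, Hist2 on chromosome 3 held 10, Hist3 on chromosome 11 held 2 and Hist4 on chromosome 6 held 1. GENCODE M21 annotates 65 of them as protein coding and the other two, Hist1h2aj and Hist1h2al, as pseudogenes. All animals were male wild-type C57BL/6 mice, 6 to 8 weeks old, entrained to a light/dark cycle before sampling by circadian time (CT). Before sampling, SD mice were kept from sleeping for 10 h by being made to walk in a turning drum, a step that control (CON) mice did not undergo. Each tissue was taken every 4 h from CT4 to CT24 in 2 samples per condition, giving 96 libraries in 48 groups. Whether the 2 samples of a group came from separate animals is not given in the labels, so the p-values below measure the spread between these samples. Nor do the labels say whether the tissues came from the same animals, and the main fits across tissues treated the libraries as independent.

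Histones package DNA: H2A, H2B, H3 and H4 form the core of the nucleosome, and H1 binds the linker DNA between nucleosomes. The genes studied here supply new histones while DNA is copied, and their transcripts are known to accumulate in S phase and to be degraded when replication ends. Most metazoan replication-dependent histone mRNAs end in a conserved stem-loop bound by the protein SLBP instead of a poly(A) tail. They are therefore lost when poly(A) RNA is selected but kept in ribosome-depleted total RNA, the material sequenced here. Adult forebrain, cerebellum, liver and kidney consist mostly of cells that no longer divide.

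The stem-loops of some members named below are shown here because they mark the transcripts as the kind that can lack a poly(A) tail. Hist1h1b and Hist1h2ak, also named often below, are annotated only to the stop codon and could not be searched. For Hist1h1a no stem-loop was found. The lines below give GENCODE M21 transcript sequence, 5′ to 3′, with the stem-loop in capitals and 5 flanking bases on each side in lower case, and the positions stated after them are those of the capitals in GRCm38.
Hist1h1c: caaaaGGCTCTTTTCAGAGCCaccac
Hist1h2ab: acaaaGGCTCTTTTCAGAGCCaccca
Hist3h2ba: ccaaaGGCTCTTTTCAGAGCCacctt
Hist1h3e: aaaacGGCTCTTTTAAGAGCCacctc
Hist1h3g: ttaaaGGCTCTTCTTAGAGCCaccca
Hist1h4h: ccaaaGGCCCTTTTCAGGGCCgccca
Hist1h4c: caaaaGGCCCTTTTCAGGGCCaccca
The positions are chr13:23739512-23739527 on the plus strand for Hist1h1c, a linker histone gene, and chr13:23751572-23751587 on the plus strand for Hist1h2ab, an H2A gene. The stem-loop of the H2B gene Hist3h2ba lies at chr11:58949349-58949364, plus strand. For the H3 genes they are chr13:23561903-23561918 on the minus strand for Hist1h3e and chr13:23535889-23535904 on the plus strand for Hist1h3g. The H4 genes Hist1h4h and Hist1h4c carry theirs at chr13:23531458-23531473 on the plus strand and chr13:23698089-23698104 on the minus strand. All of these positions lie downstream of the stop codon, in the annotated 3′ untranslated exon sequence. In GRCm38 the genes met most often below lie in single exons, Hist1h3g (ENSMUSG00000099517) at chr13:23535422-23535951, Hist1h1b (ENSMUSG00000058773) at chr13:21779883-21780625, Hist1h2ak (ENSMUSG00000063021) at chr13:21753435-21753827 and Hist1h4h (ENSMUSG00000060981) at chr13:23531050-23531519.

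A stem-loop was found in 44 members, and of these 24 (54.5%) carried the form shown for Hist1h1c, Hist1h2ab and Hist3h2ba. The form of Hist1h4h and Hist1h4c was found in 7 members and that of Hist1h3e in 6, while the form of Hist1h3g was seen in that gene alone among the members. The same search found such an element in 15 of 21071 other protein-coding genes with sequence past the stop codon (0.071%). For 21 members the annotated transcript ended close to the stem-loop, and for 23 it ran on for at least 100 bases beyond it. No stem-loop was found in 8 members with sequence past the stop codon, and for 15 members the annotated transcript ended at the stop codon or had none, so that nothing could be searched.

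The encoded proteins were far less varied than the gene names. The 13 H4 genes translated to 1 protein, the 12 H3 genes to 3, the 18 protein-coding H2A genes to 9, the 16 H2B genes to 10 and the 6 H1 genes to 6. Likeness in nucleotide sequence, which an identical protein does not imply, limits the counts. The deposited counts used only reads aligned with the highest mapping quality. A read pair that fits several copies equally well is not counted for any of them. In 21 members at least 50% of all 150-base windows of the transcript were identical to a window of another gene, a member or not, in 29 a smaller share was, and in 17 none was. Values of genes such as Hist2h2aa2 (100% of windows shared), Hist1h2ao (91.5%), Hist1h2ap (91%), Hist1h3h (90.5%) and Hist1h2aj (89.7%) are therefore uncertain and can be too low, whereas Hist1h1a, Hist1h1b, Hist1h1c, Hist1h2ak, Hist1h4d and Hist3h2ba shared none. Exons of 7 members also overlap other genes. The largest shares of exon bases were 100% in Hist2h3c1 and 90.3% in Hist2h2aa1, both with Gm20634, followed by 59.3% in Hist2h2bb (with Gm42743), 33% in Hist3h2a (with Trim17) and 25.7% in Hist1h1e (with Hist1h2be and Gm11398).

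Promoter windows of H4 genes held the CCAAT letters less often than those of the other classes, a difference that was not tested. RefSeq promoter windows (GRCm38.p6, 250 bases before to 50 after the start) were at hand for 59 members and 26966 other genes, and motifs were searched on both strands. The letters CCAAT, the core of the CCAAT box, stood in 50 of 59 member windows (84.7%) against 37.8% of the other genes. They were in all windows of 5 H1, 18 H2A, 14 H2B and 10 H3 genes but in 3 of 12 H4 windows. TATAAA, the TATA box, stood in 34 windows (57.6%) against 14.1%. ATTTGCAT, the octamer bound by POU factors, stood in 12 (20.3%) against 1.71%, and these were windows of 7 H2A and 5 H2B genes. Many H2A and H2B genes lie head to head, and 20 of their 32 windows overlap a window of the other class, so the same letters can be counted for both. These matches describe letters in a window and not binding.

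Library size, counted over genes, ranged from 24.8 M to 58.5 M fragments, with at most 30.9 M in cerebellum, at least 29.0 M in forebrain, 32.0 M in liver and 32.2 M in kidney. Levels are given as CPM, the count of a gene per M counted fragments of its library, or as CPM per kilobase of exon (CPM per kb) where genes are compared with each other. Fold changes come from fits that also scale libraries by trimmed mean of M-values (TMM) factors, so a log2 fold change between tissues can differ from the ratio of the CPM means. The cerebellum library CON CT8 replicate 1 stood apart: genes of the antisense biotype took 3.60% of its counts against 0.831 to 0.979% in the other 23 cerebellum libraries, and its summed member level was 140.7 CPM against 229 to 372. Cerebellum results are given with and without it. The kidney labels disagree among themselves: groups follow the sample titles, but in 20 of 24 kidney samples the treatment or time point field gives another condition or time, and 10 of the 12 samples titled SD are called controls there. In the other tissues titles and fields match, and kidney SD and time-of-day results hold for the titles. In the SD libraries of CT12, the summed level of Rmrp, Rpph1 and Rn7sk, abundant RNAs without a poly(A) tail, was 22719 and 23387 CPM in kidney against 9733 to 15743 in the other 22 kidney libraries. In liver these libraries had 7165 and 8137 CPM against 3097 to 7181, and the 7181 was CON CT12 replicate 2. Liver and kidney counts are therefore also given without CT12. The 5 hepatocyte markers summed to 64835 CPM or more in every liver library, the 5 kidney markers to 14540 or more in every kidney library, the 5 forebrain markers to 2049.8 or more in forebrain and the 5 cerebellum markers to 1277 or more in cerebellum. The hepatocyte list (Alb, Apoa1, Ttr, Cyp3a11 and Serpina3k) also summed to 0.821 to 2772 CPM in SD cerebellum libraries and up to 1704 CPM in CON ones. The share of each gene in these sums is not given here, so they are not read as hepatocyte RNA. The 4 choroid plexus markers summed to 3.92 to 330 CPM across cerebellum. The part of both lists in the cerebellum values was not tested.

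By summed CPM, the mean level of counted histone RNA was highest in kidney and lowest in cerebellum, an order that was not tested. The spreads of forebrain and cerebellum overlapped. Between liver and kidney the median over members changed sign with the scaling, as given below. The levels of all 67 members summed to 289 ± 32.7 CPM in forebrain CON libraries (mean and standard deviation, n = 12, as for all levels below), 257.5 ± 46.8 CPM in cerebellum, 517 ± 98.3 CPM in liver and 825 ± 71.7 CPM in kidney. Without the cerebellum library that stood apart the cerebellum mean was 268 CPM (n = 11). A low-count filter left 46 members for testing in forebrain, 40 in cerebellum and 49 each in liver and kidney. In all, 50 members passed in at least 1 tissue, 40 passed in all 4 and 17 passed in none. Of those 17, the genes Hist3h2a, Hist1h2aa, Hist2h3c1 and Hist2h3b had 0 counts in all 96 libraries. The exons of Hist2h3c1 lie wholly within those of Gm20634, and Hist2h3b shares 73.7% of its windows with other genes. The linker histone gene Hist1h1t, known from the testis, had between 16 and 91 counts over the 24 libraries of a tissue. A few genes carried a large share of the signal, since the 6 highest members made up 46.9% of the sum in forebrain, 48.8% in cerebellum, 48.2% in liver and 59.3% in kidney. Mean levels over 10 CPM were reached by 8, 9, 16 and 18 members in these tissues, in the same order.

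An H4 gene led every tissue per kb of annotated exon. That length depends on how far the annotation runs and is 312 bases in Hist1h4k but 7425 in Hist1h1d. Shared windows can also lower counts, so the order holds for these annotated lengths and counted reads. Hist1h4h was the highest member in each, at 49.6 ± 7.60 CPM per kb in forebrain, 62.8 ± 12.6 in cerebellum, 68.9 ± 9.08 in liver and 207 ± 17.2 in kidney. The kidney libraries of Hist1h4h lay between 84.1 and 111 CPM, all above the 40.5 CPM of the highest liver library. In forebrain, Hist1h4h was followed by Hist1h4d at 36.2 ± 4.47 CPM per kb, Hist1h4f at 30.8 ± 3.22, Hist1h4c at 27.2 ± 2.67, Hist1h4k at 26.3 ± 4.72 and Hist1h4m at 24.9 ± 3.44. Hist1h4h stood clear of the next gene by more than 1 standard deviation of each, while the spreads of the later neighbours in this order overlapped. The cerebellum order was Hist1h4d at 29.9 ± 6.40, Hist1h4k at 27.1 ± 6.40, Hist3h2ba at 24.3 ± 4.16, Hist1h4m at 23.5 ± 7.75 and Hist1h3e at 20.6 ± 3.01 CPM per kb, with overlapping spreads after Hist1h4h. Without the library that stood apart, Hist1h4h was at 65.3 ± 9.45, Hist1h4d at 31.3 ± 4.35 and Hist3h2ba at 25.2 ± 2.90 CPM per kb.

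**Figure D1:**
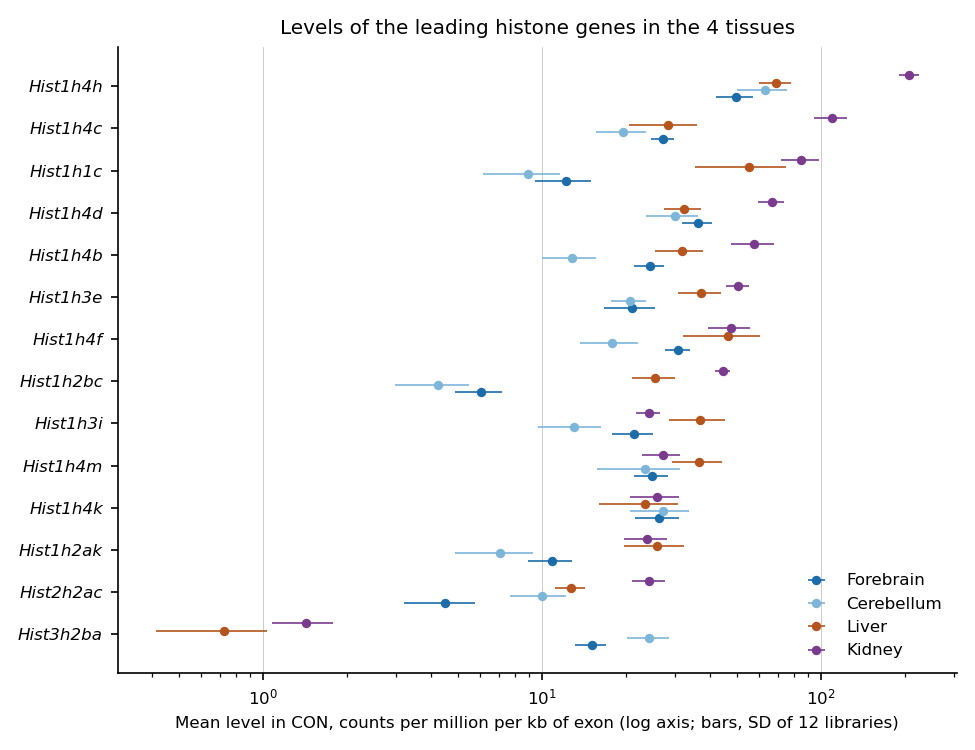
Levels of 14 members in the 4 tissues, in CPM per kilobase of exon on a log axis, as mean and standard deviation of the 12 CON libraries of each tissue. Hist1h4h is highest in each tissue and reaches 207 CPM per kb in kidney, while the H2B gene Hist3h2ba lies at 24.3 in cerebellum and 0.72 in liver.

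Outside the brain a linker histone gene joined the leading H4 genes. Hist1h1c, one of the somatic linker histone genes, stood at 55.1 ± 19.7 CPM per kb in liver and 85.1 ± 13.5 in kidney, against 12.2 ± 2.82 in forebrain and 8.89 ± 2.75 in cerebellum. In liver it was followed by Hist1h4f at 46.4 ± 14.3, Hist1h3e at 37.3 ± 6.67, Hist1h3i at 36.9 ± 8.40 and Hist1h4m at 36.7 ± 7.34 CPM per kb, whose spreads overlapped with each other and with that of Hist1h1c. The kidney order was Hist1h4c at 109 ± 14.8, Hist1h1c, Hist1h4d at 66.5 ± 6.93, Hist1h4b at 57.6 ± 10.1 and Hist1h3e at 50.4 ± 4.88 CPM per kb, where neighbours after Hist1h4h overlapped in their spreads. Among H2A genes Hist1h2ak was highest in forebrain (10.9 ± 1.98 CPM per kb) and liver (25.9 ± 6.27), and Hist2h2ac in cerebellum (9.96 ± 2.26) and kidney (24.3 ± 3.25). The highest H2B gene was Hist3h2ba in both brain tissues, at 15.1 ± 1.91 CPM per kb in forebrain, and Hist1h2bc in liver (25.5 ± 4.41) and kidney (44.5 ± 2.89).

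Tissue differences in the CON libraries were fitted in edgeR with time of day as a term, on 46 members, and a member was called where the adjusted p was under 0.05 and the log2 fold change exceeded 1 in size. Most members were higher in liver and kidney than in the brain. Against forebrain, liver was higher in 32 members and lower in 2, while 27.2% and 36.1% of all genes tested were called in these directions. Against cerebellum, liver was higher in 36 and lower in 2 (all genes 29.2% and 38.2%). Kidney was higher than forebrain in 29 members and lower in 2 (27.6% and 31.6%), and higher than cerebellum in 38 and lower in 1 (30.7% and 33.9%). The median log2 fold change over the members tested was 1.53 for liver over forebrain, 2.31 for liver over cerebellum, 1.31 for kidney over forebrain and 1.95 for kidney over cerebellum, beside medians of all genes of -0.18, -0.27, -0.08 and -0.08. The filter was applied over the CON libraries of all tissues, so a member scarce in brain could enter through liver or kidney, where it was higher. These counts and medians describe the 46 members that passed and not all 67. In bulk RNA, fewer cells of a type and less RNA per cell cannot be told apart.

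Forebrain exceeded cerebellum in 14 members and was lower in 1, Hist2h2ac (18.5% and 13.8% of all genes), with a median log2 fold change of 0.67 beside 0.09 for all genes. Without the cerebellum library that stood apart, 15 members were again called for this pair, 39 for liver against cerebellum and 39 for kidney against cerebellum, of 47 tested. Liver and kidney differed in 6 members, 3 in each direction (15.6% and 23.1% of all genes), and the member median was 0.14 beside -0.05. The 3 higher in liver, Hist1h1b (1.05), Hist1h3i (1.14) and Hist1h2ap (1.14, log2), were not called when libraries were scaled by their sizes alone, where all 6 calls were lower in liver, the member median was -0.40 and that of all genes -0.57. Under the same scaling 12 members were called for forebrain against cerebellum (7669 of 23061 genes). Liver against forebrain and cerebellum had 25 and 32 (15048 and 16336 genes), and kidney 31 and 36 (13676 and 15016 genes). For liver against kidney 10075 genes were called. The all-gene medians were -0.997 for liver against cerebellum, -0.75 for liver against forebrain and between -0.29 and -0.05 for the other pairs with brain.

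Against this trend, the H2B gene Hist3h2ba was higher in both brain tissues. It stood at 9.25 ± 1.17 CPM in forebrain and 14.9 ± 2.55 CPM in cerebellum, but at 0.445 ± 0.192 CPM in liver and 0.878 ± 0.215 in kidney. The lowest forebrain library (7.10 CPM) and the lowest cerebellum library (8.84 CPM) were above the highest kidney library (1.33 CPM). Its log2 fold change was -3.79 ± 0.161 (standard error) for liver against forebrain and -4.33 ± 0.163 against cerebellum, and for kidney -3.34 ± 0.151 and -3.89 ± 0.154, with adjusted p of 7.97e-26, 6.81e-28, 1.16e-24 and 6.05e-27. The H4 gene Hist2h4 was also lower in liver (-1.08) and kidney (-1.36) than in forebrain, and the H2A gene Hist2h2ab was lower in liver than in cerebellum (-1.24).

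The H3 gene Hist1h3b was scarce in brain and did not pass the filter within cerebellum alone. Its levels were 0.416 ± 0.268 CPM in forebrain, 0.102 ± 0.0929 in cerebellum, 3.28 ± 1.10 in liver and 4.17 ± 0.455 in kidney. The log2 fold change reached 5.69 ± 0.335 for liver and 5.51 ± 0.334 for kidney against cerebellum, and 3.55 ± 0.278 and 3.37 ± 0.274 against forebrain. The linker histone gene Hist1h1b was higher in liver than in forebrain by 3.25 (15.6 ± 4.22 against 2.45 ± 0.752 CPM), and the H2A gene Hist1h2an by 3.64 in liver and 3.37 in kidney. Kidney exceeded cerebellum in Hist1h2an by 4.44 (0.965 against 0.0486 CPM). Hist1h2an did not pass the filter within forebrain or cerebellum alone, so it and Hist1h3b entered these fits through the tissues where they are high, and the fold changes are given as a description of their levels. Hist1h2bk, an H2B gene, was higher in kidney than in forebrain by 3.08. Some H2A genes were close to the detection limit in cerebellum, where Hist1h2ap had 3 counts and Hist1h2ao 7 counts over 12 CON libraries. Hist1h2ao stood at 0.483 CPM in liver, 0.128 in forebrain and 0.0206 in cerebellum, so that its cerebellum fold changes rest on those counts. Hist1h2ab stood at 0.502 CPM in cerebellum against 2.07 in forebrain, a log2 fold change of 2.17. Kidney exceeded liver in 3 H4 genes with liver minus kidney values of -1.43 ± 0.104 (Hist1h4c), -1.06 ± 0.0927 (Hist1h4h) and -1.02 ± 0.0916 (Hist4h4).

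Sleep deprivation left the brain members without a call. With the effect averaged over the 6 time points, edgeR called 0 of 46 members in forebrain at an adjusted p under 0.05 (0.0303% of all genes), and none had an unadjusted p under 0.05 (6.41% of all genes). In cerebellum it called 0 of 40 (0% of all genes) and 1 had an unadjusted p under 0.05 (3.41%). That member was the H2B gene Hist1h2be, at 0.23 (adjusted p = 0.907). DESeq2 called 0 in both tissues, with 0 and 1 at an unadjusted p under 0.05. Fitted log2 fold changes of SD over CON ranged from -0.54 to 0.39 in forebrain and from -0.22 to 0.62 in cerebellum, with medians of 0.01 and 0.04. Leaving out the cerebellum library that stood apart also gave 0 calls.

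In liver, most histone genes of the tested set were lower after sleep deprivation. Of 49 members tested, edgeR called 32 (18.2% of all genes), 30 lower (8.8% of all genes) and 2 higher (9.42%), and the median log2 fold change was -0.62 beside 0.01 for all genes. The summed member level was 517 ± 98.3 CPM in CON and 392 ± 74.9 CPM in SD libraries. DESeq2 called 34 (4243 of 19708 genes). With library sizes alone 35 were called (1 higher and 34 lower, beside 4124 genes), with the median of all genes at -0.13.

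Hist1h3g, an H3 gene, gave the clearest separation. Its liver level was 2.77, 4.53 and 8.72 CPM in CON libraries (lowest, median and highest of 12, the order used below) and 0.468, 1.67 and 2.63 CPM in SD libraries. Every SD library was thus below every CON library, which held for 1 of 49 members and 0.335% of all genes. The fitted change was -1.42 ± 0.202 (adjusted p = 7.57e-05). In kidney 0 members had this separation (0.0465% of all genes). Linker histone genes fell as well: Hist1h1a went from 4.23, 7.28 and 9.24 CPM to 0.93, 3.42 and 5.64 CPM, a change of -1.10 ± 0.185 (adjusted p = 0.000279). Hist1h1b went from 10.7, 15.3 and 23.1 CPM to 4.88, 7.79 and 11 CPM, or -0.92 ± 0.137 (adjusted p = 0.000111). For both genes the groups overlapped slightly, between 4.23 and 5.64 CPM and between 10.7 and 11 CPM.

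Several H2A genes fell by a like amount. Hist1h2ab went from 5.39, 8.45 and 13.3 CPM to 2.07, 3.55 and 6.47 CPM (-1.06 ± 0.149, adjusted p = 6.99e-05). Hist1h2ak, with no shared 150-base window, went from 6.45, 10.1 and 15.6 CPM to 2.63, 4.92 and 7.80 CPM (-0.96 ± 0.139, adjusted p = 8.66e-05). The groups of both genes overlapped in part of their ranges. The scarcest genes rested on few fragments. The pseudogene Hist1h2aj had the largest fitted change, -2.46 ± 0.738 (adjusted p = 0.0217), with CON libraries at 0, 0.0813 and 1.36 CPM and SD libraries at 0, 0.0279 and 0.0592 CPM. Only CON CT16 replicate 2 (1.36 CPM) and CON CT20 replicate 2 (1.22 CPM) were above 0.12 CPM, and the call was lost without either of them and without SD CT16 replicate 2, SD CT20 replicate 1 or SD CT20 replicate 2. Hist1h2ae (-1.26 ± 0.440, adjusted p = 0.0483) lost its call in 19 of 24 fits made with 1 library removed, and Hist1h2ap (-1.21 ± 0.381, adjusted p = 0.0284) in 4.

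Both genes that rose lie in the Hist2 cluster. The H2A gene Hist2h2aa2 rose from 0.144, 0.462 and 1.36 CPM to 0.343, 0.862 and 1.98 CPM, by 0.75 ± 0.202 (adjusted p = 0.0111), with wide overlap of the groups, and all of its windows are shared with Hist2h2aa1, Gm20633 or Gm20634. The H2B gene Hist2h2be stood at 2.77, 3.49 and 5.85 CPM in CON and 2.90, 4.28 and 6.40 CPM in SD libraries, a change of 0.32 ± 0.104 (adjusted p = 0.0363). It lost its call in 12 of 24 fits that left out 1 library and with library sizes alone.

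**Figure D2:**
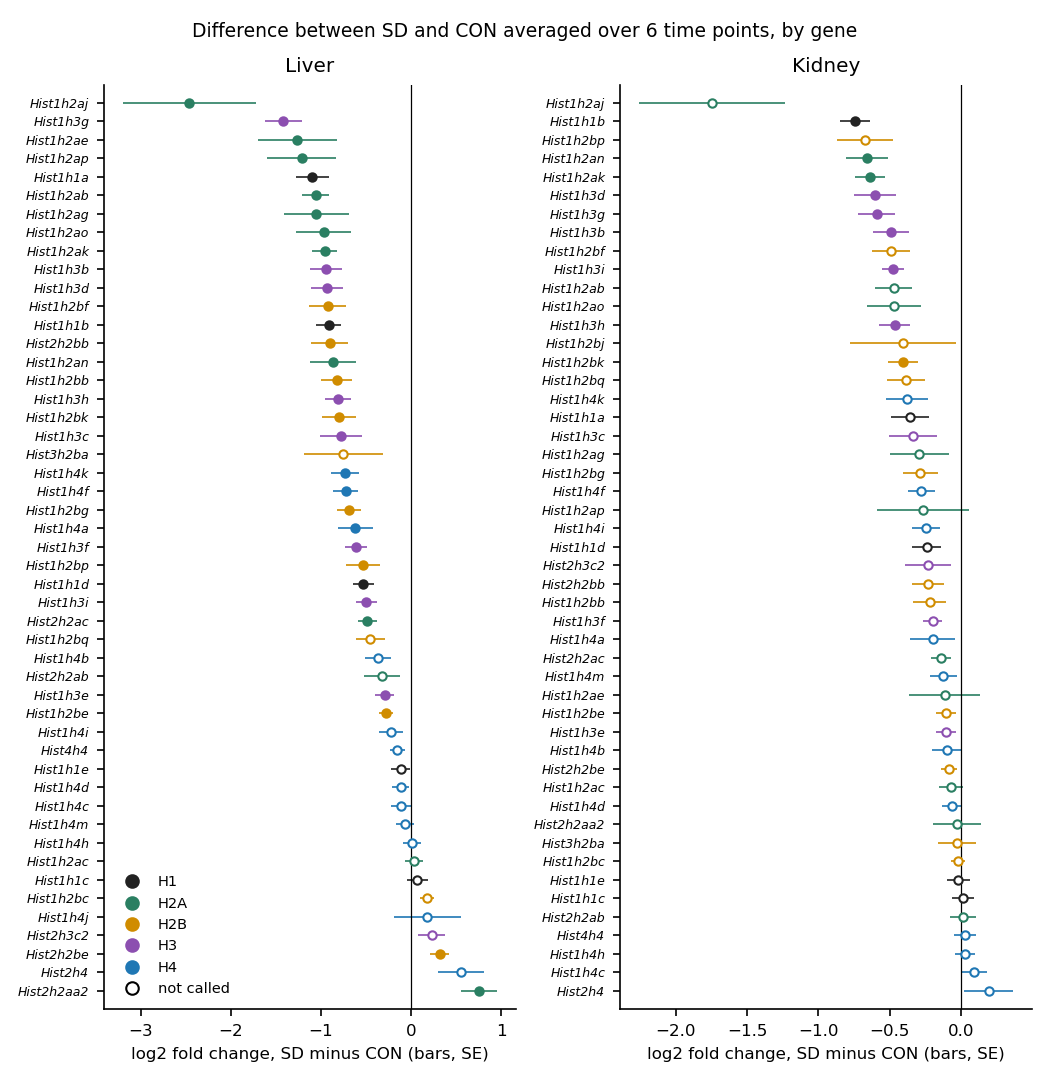
Log2 fold change of SD over CON, averaged over time of day, for the 49 members tested in liver and in kidney, with standard errors and colour by histone class. Filled points are called by edgeR at an adjusted p under 0.05 and open points are not: 32 are filled in liver, 30 of them below 0, and 9 in kidney, all below 0.

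Several of the most abundant liver members were not among those called. Hist1h1c was at 48.1, 81.3 and 153 CPM in CON and 59.1, 78.8 and 114 CPM in SD libraries, with a fitted change of 0.07 ± 0.119. Hist1h4h stood at 25.1, 32.3 and 40.5 CPM against 17.6, 28.5 and 47.7 CPM (0.01 ± 0.0999). Hist1h4d (-0.11), Hist1h4c (-0.11), Hist1h1e (-0.12) and Hist1h2bc (0.17) also stayed without a call. Of the highest members, Hist1h4f fell from 11.5, 17.6 and 27.2 CPM to 4.63, 9.64 and 13.9 CPM (-0.73 ± 0.140, adjusted p = 0.00088), and Hist1h3e from 25.7, 28.6 and 40.9 CPM to 15.5, 22.9 and 37.6 CPM (-0.29 ± 0.103, adjusted p = 0.0489), the latter call being lost in 19 of 24 fits without 1 library.

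By class, liver H3 genes had 8 of 9 tested members lower and a median of -0.78, and H2A genes 9 lower and 1 higher of 12, with a median of -0.97. H2B genes had 7 lower and 1 higher of 11 (median -0.69), H1 genes 3 lower of 5 (median -0.53) and H4 genes 3 lower of 12 (median -0.13), namely Hist1h4k, Hist1h4f and Hist1h4a, named after their values were seen. In summed CPM of the members tested, H3 went from 87.5 to 54.7, H2A from 36.5 to 21.8, H1 from 165 to 131, H4 from 161 to 130 and H2B from 66.1 to 54.0. The annotated 3′ end divided the members too. Members whose transcript ends at the stem-loop had 12 lower and 1 higher of 16 (median -0.81), members annotated only to the stop codon 8 lower of 9 (median -0.86), members that extend past the stem-loop 9 lower of 20 (median -0.25), and members without a stem-loop 1 lower and 1 higher of 4 (median -0.14). These groups differ in level as well: of the 24 members above the median level 14 were lower (median -0.43), and of the other 25, 16 were lower and 2 higher (median -0.78). Members with at least 50% of windows shared had 9 lower and 1 higher of 13 (median -0.80), those with a smaller share 15 lower of 23 (median -0.62) and those with none 6 lower and 1 higher of 13 (median -0.48). Differences between these groups were not tested.

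**Figure D3:**
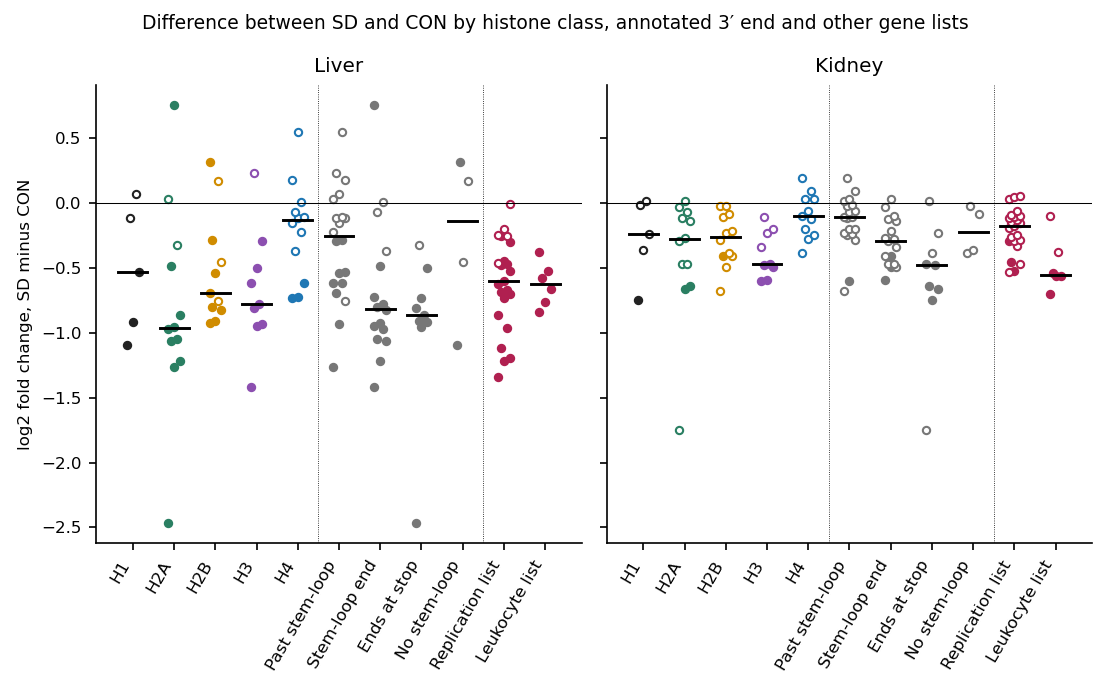
Log2 fold change of SD over CON in liver and kidney, each point 1 gene, grouped by histone class, by annotated 3′ end and beside the lists of DNA replication genes and leukocyte markers. Black lines are medians and filled points are called by edgeR: in liver the H4 median is -0.13 and the H2A median -0.97, the replication list has a median of -0.60 and the leukocyte list -0.62.

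Kidney had fewer called members, all of them lower. Of 49 members tested, 9 were called (2.3% of all genes) and all 9 were lower (2.12% of all genes), with a median of -0.24 beside 0.01 for all genes. An unadjusted p under 0.05 was reached by 23 members, and the share over all genes is not given here, so nothing is read from that count. The linker histone gene Hist1h1b led, from 8.45, 10.7 and 14.8 CPM in CON to 3.93, 6.66 and 9.47 CPM in SD libraries, a change of -0.74 ± 0.102 (adjusted p = 0.000135). Hist1h2ak went from 7.79, 8.73 and 13.2 CPM to 3.45, 6.02 and 8.36 CPM (-0.64 ± 0.105, adjusted p = 0.000811). For both genes the highest SD library was above the lowest CON library, so the groups overlapped at their edges. Of the H3 genes, Hist1h3i fell by 0.48 (adjusted p = 0.000487), Hist1h3d by 0.60 (0.0285), Hist1h3g by 0.59 (0.0129), Hist1h3b by 0.49 (0.0399) and Hist1h3h by 0.47 (0.0204) on the log2 scale. The other called members were the H2A gene Hist1h2an (-0.66, adjusted p = 0.015) and the H2B gene Hist1h2bk (-0.41, adjusted p = 0.0413).

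The kidney calls thus fell on 5 of 9 H3 members, 2 of 12 H2A, 1 of 12 H2B, 1 of 5 H1 and 0 of 11 H4 members (H4 median -0.10). By 3′ end they were 5 of 9 members annotated to the stop codon, 3 of 17 that end at the stem-loop and 1 of 19 that extend past it. Hist1h4h (0.03 ± 0.0709), Hist1h4c (0.09 ± 0.0890) and Hist1h1c (0.01 ± 0.0761), the 3 highest kidney members per kb, were without a call. Leaving out CT12, an alternative chosen after seeing the data, gave 11 calls (393 of 21380 genes) with a median of -0.37. Hist1h2an (adjusted p = 0.0714), Hist1h3b (0.0586) and Hist1h2bk (0.0583) were then not called. In liver the same alternative gave 35 calls (2738 of 19567 genes) and a median of -0.74, with Hist1h3g at -1.63, Hist1h1a at -1.29 and Hist1h2ab at -1.22.

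Whether SD and CON differed at any time of day was asked with a joint test over the 6 time points. In liver it called 16 of 49 members (3.56% of all genes) and in kidney 4 (0.725%). In forebrain and cerebellum edgeR and DESeq2 both called 0 members by this test (edgeR 0% of all genes in each). At an unadjusted p under 0.05, edgeR had 2 in forebrain (11.9% of all genes) and 0 in cerebellum (9.16%), and DESeq2 had 2 and 0. A cerebellum count of 15 appeared when CON CT8 replicate 2 was left out, which leaves the library that stood apart as the only CON library at CT8, while the count was 0 without that library.

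The liver members with the smallest p were Hist1h2ak (adjusted p = 0.00491), Hist1h1b (0.00545), Hist1h3g (0.00682), Hist1h2ab (0.00818), Hist1h3d (0.00849) and the H2B gene Hist1h2bg (0.0135). Those of kidney were Hist1h1b (0.0123), Hist1h2ak (0.0209), Hist1h2ab (0.0232) and Hist1h3i (0.0262). Hist1h2ak had liver CON libraries of 9.62 and 10.5 CPM at CT4 and 13.2 and 15.6 at CT8 against SD libraries of 3.89 and 2.63 and of 3.59 and 5.69 CPM, so the groups were apart at both times. At CT12 they were 8.16 and 10.2 against 5.51 and 7.80 CPM, still apart but closer together. Hist1h1b in kidney was at 11.2 and 10.2 CPM in CON and 5.91 and 3.93 CPM in SD libraries at CT4, also without overlap.

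The size of the SD effect varied among time points, and the differences between time points were not tested. The median log2 ratio of SD to CON over the 49 liver members was -1.02 at CT4, -1.04 at CT8, -0.06 at CT12, -0.44 at CT16, -0.54 at CT20 and -0.94 at CT24. Over all genes it lay between -0.18 and -0.09. Both SD libraries were below both CON libraries in 38 members at CT4 (34.8% of all genes), 40 at CT8 (32.8%), 7 at CT12 (42.8%), 32 at CT16 (24.1%), 28 at CT20 (32.5%) and 31 at CT24 (35.4%). At CT12 the share of liver members was thus below that of all genes, a difference that was not tested.

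In kidney the same medians were -0.67 at CT4, -0.27 at CT8, 0.24 at CT12, -0.28 at CT16, -0.05 at CT20 and -0.32 at CT24. Both SD libraries were below both CON libraries in 33 members at CT4 (16.4% of all genes), 26 at CT8 (10.6%), 7 at CT12 (24.4%), 17 at CT16 (14.3%), 11 at CT20 (17.2%) and 26 at CT24 (18.7%). At CT12, 16 kidney members were instead above in both SD libraries (20.7% of all genes). The summed member level there was 1050 and 1201 CPM, against 580 to 960 CPM in the other 22 kidney libraries. These are the libraries in which Rmrp, Rpph1 and Rn7sk were also highest in kidney, and the part of that shift in the CT12 values was not tested. The summed level of the DNA replication list described below was 365 and 369 CPM in them, within the 313 to 462 CPM of the other kidney libraries.

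**Figure D4:**
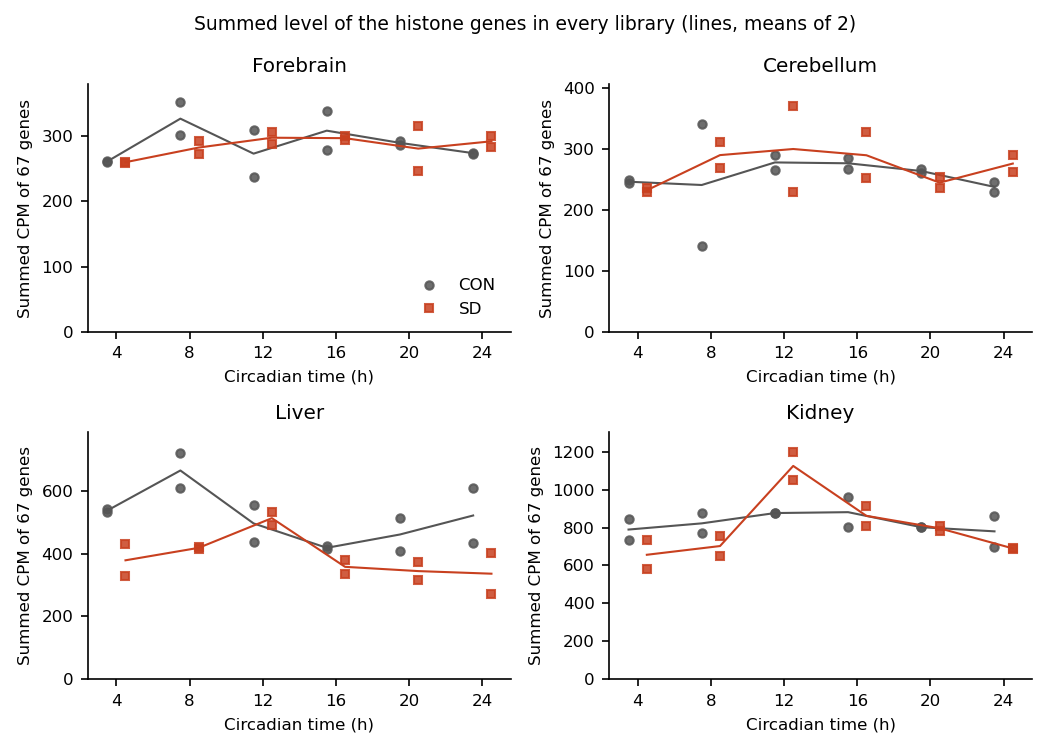
Summed level of the 67 members in each library, in CPM, by circadian time for CON and SD in the 4 tissues, each point 1 library. In liver the mean of the SD points is below that of the CON points at every time but CT12, and in kidney the 2 SD libraries at CT12 are the highest of the tissue at 1050 and 1201 CPM.

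The SD effect itself differed among the tissues for some members. A test of the tissue by SD term over all 96 libraries called 17 of 47 members (6.33% of all genes). The 6 of smallest p were Hist1h2ak, Hist1h1b, Hist1h2ab, Hist1h3g, Hist1h1a and Hist1h4f. For Hist1h2ak the log2 fold changes were 0.00 in forebrain, 0.11 in cerebellum, -0.96 in liver and -0.64 in kidney, and for Hist1h1a they were 0.03, -0.10, -1.10 and -0.36. Without the cerebellum library that stood apart 17 were called, and with library sizes alone 24 (2547 of 24725 genes).

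Time of day was tested over CON and SD libraries together. In liver 14 of 49 members were called (40.6% of all genes), and with no filter 33 of 62 members and 8753 of 32589 genes. In kidney 6 of 49 were called (11.2% of all genes), a share near that of all genes, so that nothing about the members is read from the count. In forebrain edgeR called 0 members (0.156% of all genes) with 4 at an unadjusted p under 0.05 (16.9%), and in cerebellum 0 (0.207%) with 3 (17.5%), where DESeq2 called 0 in both with 8 and 4 at an unadjusted p under 0.05. The liver gene of smallest p was the H3 gene Hist2h3c2, whose time-point mean was 2.31 CPM at CT24 and 0.563 CPM at CT12 (adjusted p = 1.94e-06). Its 2 libraries at CT24 were 2.70 and 1.78 CPM in CON and 2.77 and 1.99 CPM in SD, against 0.328 and 0.657 and 0.696 and 0.573 CPM at CT12, with no overlap. Hist2h2aa2 had a like course, 1.36 CPM at CT24 and 0.385 at CT16 (adjusted p = 0.00022).

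For 2 H2B genes named in liver the time of the highest mean differed between the conditions, a difference that was not tested. Hist1h2be (adjusted p = 0.00155) had a CON mean of 9.27 CPM at CT8, 8.24 at CT12 and 5.47 at CT20, and an SD mean of 5.82, 7.45 and 4.42 CPM at these times. Hist1h2bc (adjusted p = 0.00328) had a CON mean of 35.2 CPM at CT8, 29.0 at CT12 and 23.9 at CT16, and an SD mean of 30.5, 40.2 and 24.6 CPM. The highest SD means thus fell at CT12, where Rmrp, Rpph1 and Rn7sk summed to 7165 and 8137 CPM in SD and to 5225 and 7181 CPM in CON libraries. The part of that level in these values was not tested. With CT12 left out, 14 liver members were called (6747 of 19567 genes).

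In kidney the means at CT12 include the SD libraries with the highest Rmrp, Rpph1 and Rn7sk, and the part of that shift in them was not tested. The linker histone gene Hist1h1e had a mean of 58.6 CPM at CT12 and 30.6 at CT24 (adjusted p = 0.000792), with CON libraries of 48.9 and 53.2 and SD libraries of 62.3 and 70.2 CPM at CT12 against 27.8 and 35.2 and 29.8 and 29.6 CPM at CT24. Hist1h1c was at 187 against 104 CPM (adjusted p = 0.00213) and the H4 gene Hist1h4c at 134 against 80.8 CPM (adjusted p = 0.0175). For Hist1h1e the libraries of the extreme time points did not overlap in either condition. The pseudogene Hist1h2aj, at 0.534 CPM at CT8 and 0.0325 at CT24 (adjusted p = 0.0067), had a CT8 mean that rested on the CON libraries (0.693 and 1.26 CPM) and not on the SD libraries (0.159 and 0.0262 CPM). Without CT12, 3 kidney members were called for time of day (1544 of 21380 genes), and 3 without SD CT12 replicate 1 alone.

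**Figure D5:**
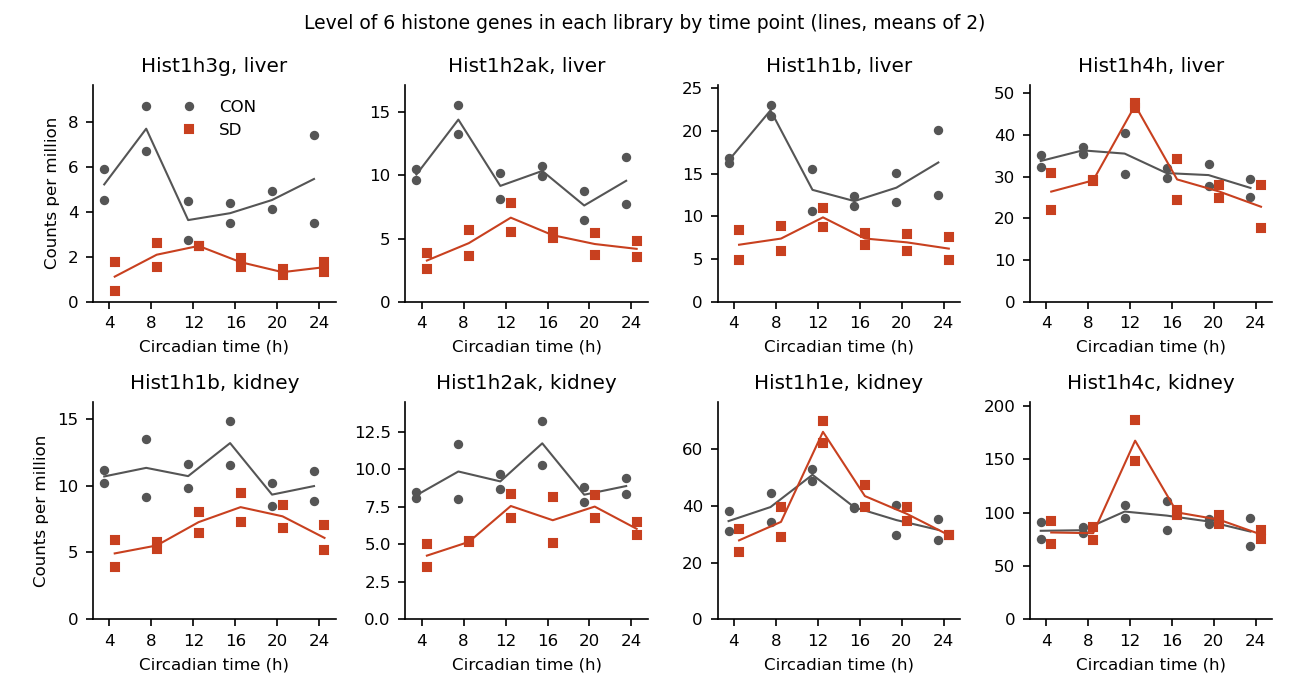
Levels in CPM by circadian time for 6 members, 4 panels in liver and 4 in kidney, each point 1 library. Liver Hist1h3g has every SD library below every CON library, and kidney Hist1h1e has its highest libraries at CT12 in both conditions, up to 53.2 CPM in CON and 70.2 CPM in SD.

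No member passed JTK_CYCLE as a 24 h rhythm at an adjusted p under 0.05 in any of the 8 combinations of tissue and condition. Among all genes it called 0% in forebrain CON and SD and in cerebellum CON and SD, 0.147% in liver CON, 1.76% in liver SD, 0.158% in kidney CON and 0% in kidney SD. At an unadjusted p under 0.05 it held 9 members in liver CON (12.6% of all genes), 7 in liver SD (16.3%), 2 in kidney CON (6.91%), 8 in kidney SD (7.37%) and 0 in both brain tissues.

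A second tool gave more. Cosine and sine terms in edgeR called 10 members in liver CON (8.79% of all genes), 7 in liver SD (11.8%), 3 in kidney CON (3.93%) and 4 in kidney SD (1.92%). They called 0 in forebrain CON (0.0997%), forebrain SD (0.00433%), cerebellum CON (0.0045%) and cerebellum SD (0.0945%). In these 4 brain groups 2, 4, 0 and 5 members had an unadjusted p under 0.05. Among all genes this held for 4191 and 2356 of 23078 in forebrain CON and SD and for 1899 and 2754 of 22218 in cerebellum. Hist2h3c2 was called in liver CON (adjusted p = 0.00165), liver SD (0.00463) and kidney CON (0.0383), and the linker histone gene Hist1h1c in liver CON (0.0450), liver SD (0.0454), kidney CON (0.0241) and kidney SD (0.0136). Hist1h1e was called in kidney CON (0.0415) and kidney SD (0.0309).

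Many genes that act in DNA replication were also lower after SD in liver. Of 23 replication and S phase genes tested, 18 were lower after SD (8.8% of all genes) and none higher (9.42%), with a median of -0.60. Top2a, the topoisomerase of dividing cells, fell by 1.19 (32.0 ± 14.1 to 12.6 ± 4.66 CPM), the proliferation marker Mki67 by 1.12 (27.2 ± 11.3 to 11.95 ± 6.44 CPM) and Pola1, the catalytic subunit of DNA polymerase alpha, by 0.45. The summed level of the list was 300 to 644 CPM in CON and 188 to 328 CPM in SD libraries. At CT12 in liver the list summed to 300 and 374 CPM in CON and 244 and 271 CPM in SD libraries. The summed histone members at that time were 437 and 557 CPM in CON and 493 and 534 CPM in SD libraries. Kidney had 3 of 23 lower (2.12% of all genes), the helicase subunit Mcm5 (-0.29), Top2a (-0.53) and the cyclin-dependent kinase Cdk1 (-0.45). The kidney sums were 383 to 462 CPM in CON and 313 to 441 CPM in SD libraries. None of the 22 tested in each brain tissue was called.

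Of 12 histone chaperones tested in liver, 3 fell (8.8% of all genes were lower). These were Asf1b, which hands H3 and H4 to assembly factors, by 1.05, and the chromatin assembly subunits Chaf1b by 0.76 and Chaf1a by 0.36. Asf1b also fell in kidney, by 0.60. Among 15 genes of histone mRNA processing and transcription, the stem-loop binding protein gene Slbp fell by 0.21 in liver (17.7 ± 2.19 to 13.8 ± 1.55 CPM) and Eri1, an exonuclease that acts on the histone stem-loop, by 0.17, while the decay factor gene Upf1 rose by 0.15. None of the 15 was called in kidney, forebrain or cerebellum. Of 10 replication-independent variants in liver, H1f0, the linker histone of non-dividing cells, rose by 0.30 and Cenpa, the centromeric H3, fell by 0.42. No variant was called in the other tissues. As 18.2% of all genes tested in liver were called, the calls in these short lists are given as a description alone. The 8 tested RNAs without a poly(A) tail (the list that holds Rmrp, Rpph1 and Rn7sk) gave no call for the averaged SD effect in any tissue.

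Leukocyte markers were also lower after SD in liver, and most of them in kidney. All 6 were lower in liver (8.8% of all genes), among them Ptprc (-0.76), Coro1a (-0.84) and Laptm5 (-0.58). Their summed level was 280 to 605 CPM in CON and 174 to 292 CPM in SD libraries. In kidney 4 of 6 were lower (2.12% of all genes), with Ptprc at -0.56, Coro1a at -0.70 and Laptm5 at -0.54. The kidney sums were 115 to 207 CPM in CON against 69.6 to 110 CPM in SD libraries. None of the 4 tested in each brain tissue was called. Of 5 hepatocyte markers in liver 4 were higher (9.42% of all genes), including Serpina3k (0.50), Cyp3a11 (0.44) and Apoa1 (0.28). The erythroid, platelet and choroid plexus markers had 0 calls in every tissue, the list of neural and glial progenitor markers had Top2a alone in liver and kidney, and the brain markers Ppp1r1b (0.35) and Calb1 (0.36) rose in liver at means of 4.74 to 5.71 CPM. The part of leukocyte RNA in the histone values was not tested.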

How the data were processed

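Total RNA of forebrain, cerebellum, liver and kidney was depleted of ribosomal RNA and sequenced strand-specifically as paired reads of 150 bases. The authors trimmed reads with Trim Galore 0.6.4, aligned them to GRCm38 with HISAT2 2.1.0, kept alignments of mapping quality 60 with Samtools 1.9 and counted fragments per gene with featureCounts 1.6.4, and the deposited values are these raw counts without normalisation. The table held 54833 rows, of which 49585 carried Ensembl identifiers and 5248 were numbered loci, and 49326 identifiers matched a GENCODE M21 symbol. Groups followed the sample titles, which the treatment or time point field contradicts in 20 of 24 kidney samples. No 2 libraries were duplicates. Member genes, gene lists and tests were chosen with earlier results of these data known.

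Counts were filtered with filterByExpr, scaled by trimmed mean of M-values factors and tested with the quasi-likelihood test of edgeR 4.0.16 in R 4.3.3, within each tissue for SD and time of day and across tissues for tissue differences and the tissue by SD term. P-values were adjusted by Benjamini and Hochberg over all genes tested, which were 23078 in forebrain, 22218 in cerebellum, 19708 in liver, 21528 in kidney and 23061 between tissues, with a threshold of 0.05. All p-values printed as adjusted come from edgeR unless JTK_CYCLE or DESeq2 is named. JTK_CYCLE, with its exact null distribution, tested rhythms of 24 h in CPM. Alternatives were DESeq2 1.42.0, other scalings, no filter, a replicate block and leaving out single libraries. For JTK_CYCLE and the tissue pairs, all libraries of a replicate number were left out. Leaving out CT12 or the cerebellum library CON CT8 replicate 1 was chosen after seeing the data. The averaged SD test, a tissue pair, the tissue by SD term and JTK_CYCLE were tried on simulated data. The any-time, time-of-day and cosine and sine tests were not. Same-numbered CON and SD libraries deviated together (correlation over 0.1) at 3, 3, 3 and 4 of 6 time points in forebrain, cerebellum, liver and kidney, so that the numbers were not taken as pairs.

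Stem-loops were searched within 300 bases past the stop codon, and shared 150-base windows and proteins were derived, from GENCODE M21 transcript sequences, used in place of the genome. Promoter windows came from RefSeq. Genes were named by rule: all called for SD in a tissue (with over 12, the 6 largest rises and falls), 6 by smallest p for any time point and for the tissue by SD term, 4 for time of day and rhythm, the 6 highest levels per kb and the highest of each class, the 3 largest differences per direction and tissue pair, and 3 per other list. Computation used Python 3.11.15, pandas 2.3.3 and scipy 1.17.1.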

Additional observations from a re-analysis of the deposited data

Results flagged for a closer look

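The effect of SD differed among the 4 tissues in 17 of 47 members (6.33% of all genes) by the tissue by SD term of edgeR, fitted over all 96 libraries. The smallest adjusted p belonged to the H2A gene Hist1h2ak (1.89e-05), with log2 fold changes of 0.00 in forebrain, 0.11 in cerebellum, -0.96 in liver and -0.64 in kidney. The linker histone gene Hist1h1b followed (adjusted p = 0.00027) with 0.23, -0.00, -0.92 and -0.74 in the same order, and Hist1h2ab (0.000316) with 0.13, 0.02, -1.06 and -0.47. The H3 gene Hist1h3g (adjusted p = 0.00066) had 0.20, -0.13, -1.42 and -0.59, the linker histone gene Hist1h1a (0.00191) 0.03, -0.10, -1.10 and -0.36, and the H4 gene Hist1h4f (0.0029) -0.01, 0.14, -0.73 and -0.28. In each of these genes the liver value was the lowest of the 4. Which pairs of tissues differed was not tested. DESeq2 called 19 members, library sizes alone 24, no filter 13 and the fit without the cerebellum library CON CT8 replicate 1 gave 17.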

How the results depend on the processing

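Of 124 counts of called members recomputed under another setting, 108 stayed within 1.5 times the count reported and 16 did not. The 108 include every count for SD, time of day and rhythm within forebrain and cerebellum, and every recomputed JTK_CYCLE count. All of these were 0 under each setting, so the 108 say little about the results with calls. For SD at any time point, liver had 25 calls with DESeq2 (2017 of 19708 genes) and 32 with no filter (2873 of 32589). Kidney had 12 with DESeq2 (694 of 21528 genes), 2 with library sizes alone (53) and 30 with no filter (2705 of 36128). The main fits called 702 genes in liver and 156 in kidney, so the calls over all genes moved with the setting too. No filter also gave 33 calls for time of day in liver (8753 of 32589 genes) and 17 in kidney (3929 of 36128). It gave 19 for the averaged SD effect in kidney (1043 of 36128 genes) and 11 for liver against kidney. Leaving out CT12 gave 3 for time of day in kidney (1544 of 21380 genes). More members are tested with no filter (62 in liver and 63 in kidney). Cosine and sine terms in edgeR called 10 members in liver CON, 7 in liver SD, 3 in kidney CON and 4 in kidney SD, where JTK_CYCLE called 0. The cause of the other differences was not tested.

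With a replicate block, kidney had 5 calls for the averaged SD effect (434 of 21528 genes) and 1 for any time point (141 genes). Hist1h2an, Hist1h3b, Hist1h3h and Hist1h2bk were not called in kidney under the block, nor Hist1h2ae in liver. Their log2 fold changes under the block were -0.67, -0.50, -0.48, -0.41 and -1.20 in that order, with adjusted p of 0.0519, 0.0648, 0.0510, 0.0862 and 0.0682.

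Leaving out libraries moved 13 of 323 counts by more than 1.5 times. Most of these fits left out 1 library. For JTK_CYCLE, and in part for the tissue pairs, all libraries of a replicate number were left out instead. No gene then had an unadjusted p under 0.05 by JTK_CYCLE, so those counts could not move. The range was 0 to 15 for SD at any time in cerebellum, 9 to 19 in liver and 1 to 5 in kidney, and 12 to 24 for time of day in liver and 3 to 7 in kidney. The any-time count of liver was 9 without SD CT8 replicate 1 and 10 without each of CON CT8 replicate 1, CON CT24 replicate 2 and SD CT20 replicate 2. That of kidney was 1 without each of CON CT4 replicate 2, CON CT24 replicate 2 and SD CT24 replicate 2, and 2 without each of CON CT4 replicate 1, SD CT4 replicate 2 and SD CT24 replicate 1. The cerebellum count was 15 without CON CT8 replicate 2, and time of day gave 24 in liver without CON CT12 replicate 1 and 3 in kidney without SD CT12 replicate 1.

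Differences of the 17 members that passed the filter in no tissue were not tested, nor was the cause of their low counts. Shared copies can make the levels of near-identical genes too low. With 2 libraries a group, tests at single time points rest on few values.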
